A study of Arabidopsis thaliana with 20 samples.

Results

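The comparison described here is the step from low to high cytokinin in wild type tissue: 2 arrays of hypocotyl segments kept on 200 ng/ml kinetin against 2 arrays of segments kept on 25 ng/ml. These 4 arrays, of 20 in the series, were chosen by their titles. All were Arabidopsis thaliana of the Landsberg erecta (Ler) wild type, with no mutation or transgene named in the labels. Seedlings grew for 10 days in dim light, and segments of their hypocotyls, the embryonic stems, were then held for 3 days under continuous light on callus induction medium. That medium carried biotin and the synthetic auxin 2,4-D at 100 ng/ml in every group, so auxin did not differ between the arrays compared and kinetin, a synthetic cytokinin, did. The other groups used below are wild type without kinetin and the cytokinin-hypersensitive mutants ckh1-1 and ckh2-1 at 25 and 200 ng/ml, each with 2 arrays on the same medium. The labels do not say whether the 2 arrays of a group came from separate cultures. P-values and SEs use a spread between arrays estimated over all 20, not from the 4 compared alone. That spread may be technical. The 20 arrays also include ckh1-1 and ckh2-1 without kinetin and wild type with trichostatin A (TSA) at 100 ng/ml and no kinetin. Each of these groups has 2 arrays.

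Cytokinin is read by histidine kinase receptors at membranes, which pass phosphate through shuttle proteins to type-B response regulators, transcription factors in the nucleus. Among the genes these switch on soonest are the type-A response regulators, which dampen the same pathway. In excised tissue auxin and cytokinin together drive callus, auxin-rich medium favours root-like growth programs, and more cytokinin shifts the balance toward shoot-like growth and greening.

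Each array was an Affymetrix ATH1 array, on which a probe set is designed to read the transcript of a gene and some match several genes, and its values are MAS5 signals on the deposited linear scale. The arrays numbered replicate 1 were all scaled 1.31 times higher than those numbered replicate 2 (trimmed means of 311 and 237), so each difference was taken within a replicate number, by fitting the number as a block. The median signal was 133 and 103 in the 25 ng/ml arrays and 128 and 101 in the 200 ng/ml arrays, replicate 1 first. Replicates of a group correlated across probe sets at 0.958 for 25 ng/ml and 0.974 for 200 ng/ml, within a range of 0.958 to 0.987 over the 10 groups. The tissue could be checked against few defining genes. Of 22 vascular, epidermis and mesophyll markers only RCA, which encodes Rubisco activase, is named in the array's name table. RCA read 498 and 415 at 25 ng/ml and 937 and 473 at 200 ng/ml, a log2 fold change of 0.53 ± 0.21 (SE) that did not pass the test (limma, Benjamini-Hochberg adjusted p = 0.201). In whole segments, fewer cells of a type and less RNA per cell cannot be told apart.

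Raising kinetin from 25 to 200 ng/ml changed 658 of the probe sets tested. Of the 15469 tested, 398 (2.57%) were higher and 260 (1.68%) lower at 200 ng/ml, which together is 4.25% (limma on log2 of signal plus 27.39, adjusted p below 0.05). All log2 fold changes below are on that scale, which understates the change of dim genes. Most changes were moderate: 144 rises and 92 falls exceeded 1 on the log2 scale, and 2 rises and 6 falls exceeded 2. The called probe sets comprised 341 that map to 1 gene, 9 that map to several and 308 with no gene in the array's name table. Each of the 658 moved the same way in replicate 1 as in replicate 2, against 53.6% of all tested, and such agreement is part of what the test rewards. On the deposited scale the arrays did not overlap between the groups for 368 of the 398 higher and 254 of the 260 lower probe sets, beside 23.6% of all tested.

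The size of the step differed between the replicate numbers. Its median was 0.95 in replicate 1 and 0.82 in replicate 2 for the higher probe sets, and -0.98 and -0.75 for the lower ones. The change was larger in replicate 1 for 64.6% of either group, beside 61.8% of all tested, and over all probe sets the replicate differences correlated at 0.21. Single arrays weighed on the count: leaving out replicate 1 at 200 ng/ml left 146 calls and leaving out replicate 1 at 25 ng/ml left 315. Without the replicate block 76 calls were left, and all 76 were among the 658. Arrays rescaled to a common trimmed mean and fitted without the block, an alternative chosen after seeing the data, gave 461 calls, 458 of them among the 658.

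**Figure D1:**
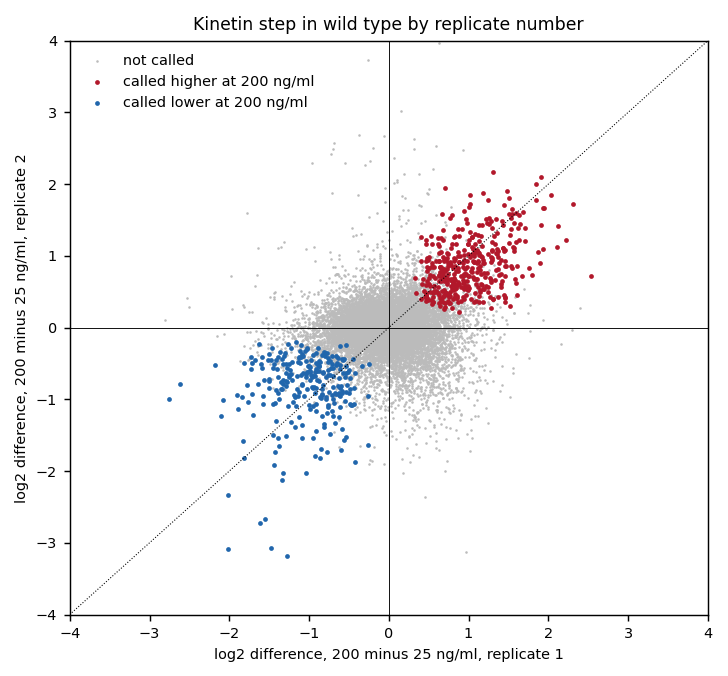
Log2 difference of 200 minus 25 ng/ml kinetin in wild type for each of the 15469 probe sets tested, replicate 1 on the x axis and replicate 2 on the y axis, with equality dotted. The 398 probe sets called higher (red) and the 260 called lower (blue) lie where both differences have the same sign, while the others (grey) scatter around 0.

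The 12 largest rises among probe sets with 1 gene, of which AT1G31710 has 2, brought the signal to between 2.50 and 6.29 times that at 25 ng/ml. SP1L2, a SPIRAL1-like protein of a family that acts on cortical microtubules, read 46.8 and 35.4 at 25 ng/ml and 294 and 140.0 at 200 ng/ml. Both arrays at 200 ng/ml lay far above both at 25 ng/ml, and its log2 fold change was 1.76 ± 0.27 (SE, adjusted p = 0.00136). Without kinetin SP1L2 read 44.2 and 47.2, below the 25 ng/ml array in replicate 1 and above it in replicate 2. That first step was not called (-0.10 ± 0.27). AT3G61920 had the largest rise of any probe set with 1 gene, from 65.6 and 36.0 to 307 and 190.1 (log2 fold change 1.81 ± 0.18, adjusted p = 5.4e-05). AT1G31710 was read by 2 probe sets, and both rose, by 1.72 ± 0.21 and 1.55 ± 0.15. The brighter of them went from 861 and 777 to 2755 and 2164, so the gene was already abundant at 25 ng/ml.

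AT3G10080 was the most abundant of the remaining strong risers, at 852 and 803 in the 25 ng/ml arrays and 2805 and 2519 in the 200 ng/ml arrays (1.65 ± 0.18). It had read 493 and 508 without kinetin, below both 25 ng/ml arrays, but that first step was not called (0.69 ± 0.18, adjusted p = 0.271). AT2G01610 showed the same order, with 275 and 186 without kinetin, 580.2 and 361 at 25 ng/ml and 1633 and 1244 at 200 ng/ml (1.58 ± 0.19). Its first step was not called either (0.93 ± 0.19, adjusted p = 0.122). Above all of these and AT3G61920 stood 4 probe sets with no single gene in the tables, at 2.02, 2.01, 1.94 and 1.92, picked out after their values were seen. The other rises named by rule were AT1G03620 (1.69), AT1G62480, AT5G11420 and AT5G19110 (1.60 each), AT3G15650 (1.55) and AT1G13610 (1.53). The annotation tables give these loci no name. The arrays did not overlap for any of the 12 probe sets, beside 92.5% of all those called higher and 23.6% of all tested. That count says no more than that they were the largest called rises. Their limma adjusted p-values ran from 2.7e-05 to 0.013. AT1G13610, the dimmest, was the 1 of the 12 whose call was lost under some alternatives, among them leaving out replicate 1 at 200 ng/ml (adjusted p = 0.207).

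The largest falls were deeper than the largest rises. AT3G22620 read 372 and 434 at 25 ng/ml and 71.4 and 26.8 at 200 ng/ml, which is 5.22 times lower in replicate 1 and 16.2 times lower in replicate 2. Its log2 fold change was -2.55 ± 0.23 (adjusted p = 3.6e-05). AT2G23540 fell from 310.2 and 289 to 56.3 and 35.3 (-2.17 ± 0.16, adjusted p = 8.03e-06), the smallest adjusted p among these falls. AT4G38080 fell from 316 and 636 to 114 and 45.6 (-2.23 ± 0.28), and AT1G74460 from 343 and 369.9 to 98.4 and 35.3 (-2.11 ± 0.24). In each of these 4 genes both arrays at 200 ng/ml lay below both at 25 ng/ml, and the deeper fall was in replicate 2.

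AT4G08780 was the brightest of the strong fallers, from 1586 and 1683 to 428 and 547 (-1.70 ± 0.16). Without kinetin it read 2324 and 2116. AT1G18830, annotated with the synonym SEC31A, a name of coat proteins that form vesicles at the endoplasmic reticulum, fell from 187 and 213 to 58.1 and 31.5 (-1.68 ± 0.23). The other falls named by rule were AT2G22510 (-1.73), AT1G69526 (-1.70), AT1G68850 (-1.58), AT5G67390 (-1.54), AT1G75880 (-1.51) and AT2G48130 (-1.51). Of all probe sets called lower, 97.7% did not overlap between the groups, beside 23.6% of all tested. Choosing the largest called falls favours such a result. None of the 12 genes overlapped between the groups, and 9 of the 12 were called under all 12 alternatives. AT1G69526, AT5G67390 and AT1G75880 were lost without replicate 1 at 200 ng/ml, with adjusted p-values of 0.15, 0.0921 and 0.0592.

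**Figure D2:**
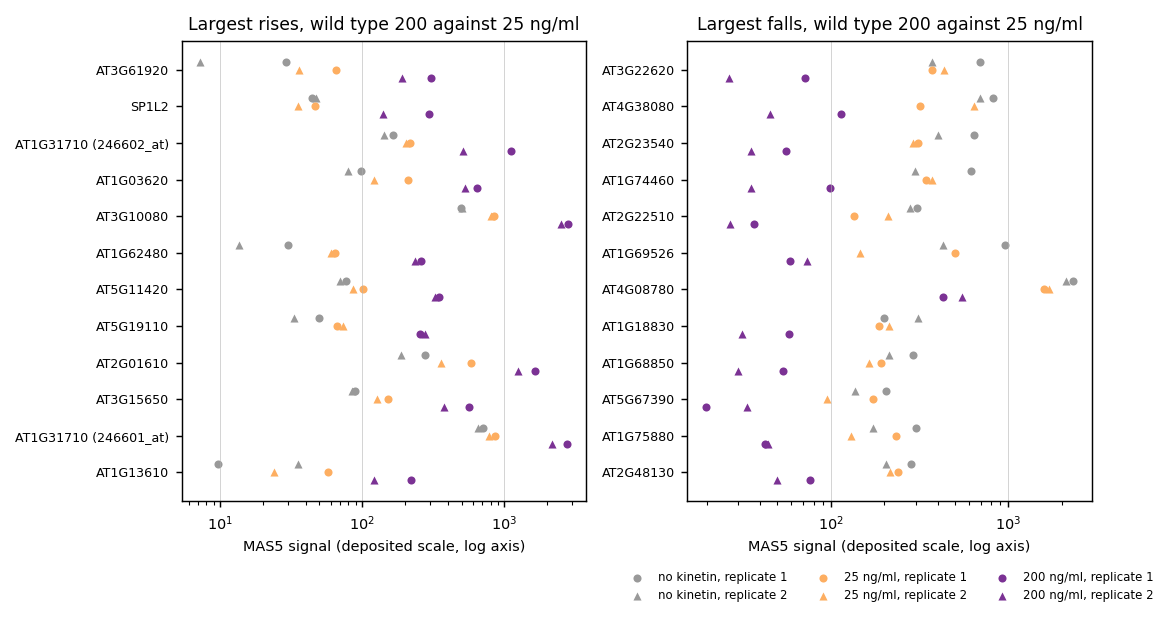
MAS5 signal per array (log axis) in wild type without kinetin (grey), at 25 ng/ml (orange) and at 200 ng/ml (purple) for the 12 probe sets with the largest rises (left) and the 12 with the largest falls (right), circles for replicate 1 and triangles for replicate 2. In every line the purple points lie clear of the orange ones, as for AT3G22620 with 71.4 and 26.8 at 200 ng/ml against 372 and 434 at 25 ng/ml.

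A name other than a locus tag was available for 44 of the called genes, 21 higher and 23 lower, and the decision to describe all of them was made after their values were seen. Their arrays did not overlap in 43 of the 44, beside 23.6% of all probe sets tested and 92.5% and 97.7% of all those called higher and lower, so this count says no more than that they were called. The exception was MDH, the plastid malate dehydrogenase. Many of these calls rest on the modelled spread: 29 of the 44 were called in rescaled arrays without the block, 2 without the block on the deposited scale (SP1L2 and XTH32), and 37 were lost without replicate 1 at 200 ng/ml. Under all 12 alternatives 2 of the 44 stayed called, again SP1L2 and XTH32, and the other 42 were lost under at least 1. The counts of list members below stand beside 4.25% of all probe sets called, 2.57% higher and 1.68% lower, and in lists this small 1 or 2 calls more or less carry no result about the list.

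**Figure D3:**
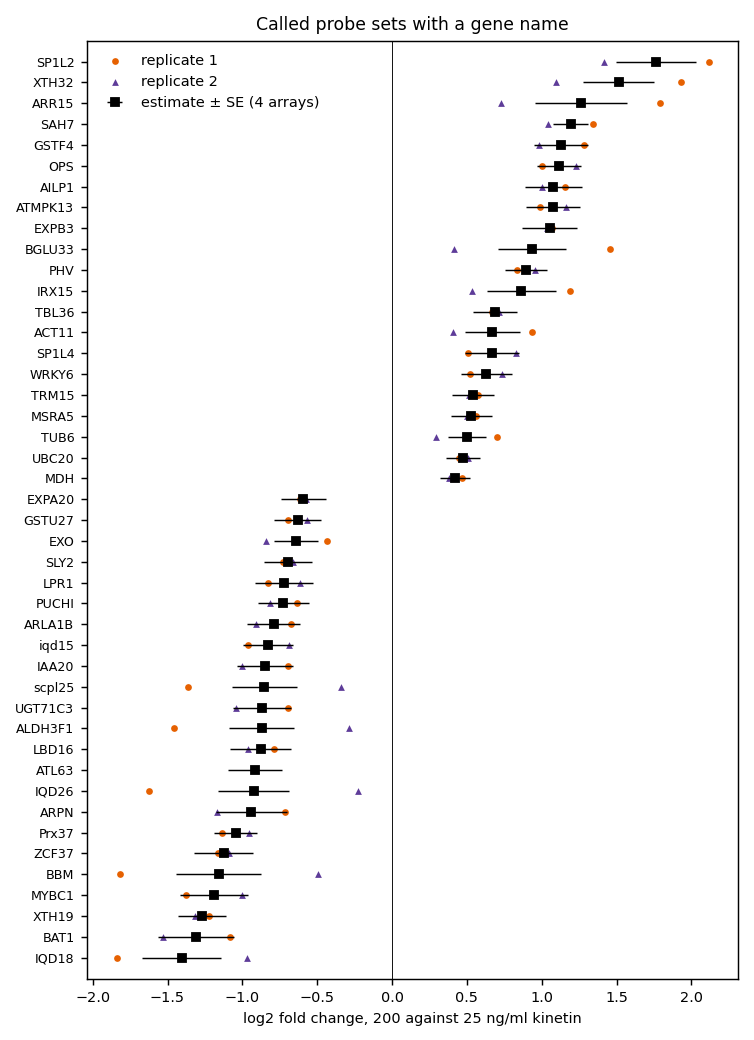
Log2 fold change at 200 against 25 ng/ml kinetin for the 44 called genes that carry a gene name, with the estimate and its SE (black squares and lines) and the differences in replicate 1 (orange circles) and replicate 2 (purple triangles). The estimates run from -1.40 for IQD18 to 1.76 for SP1L2, and the replicates lie far apart for IQD26, ALDH3F1, scpl25, BBM, BGLU33 and ARR15.

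In the cytokinin pathway itself, the array's name table gives 2 type-A response regulators. It gives no gene for 8730 probe sets, so others may have been read without a name. ARR15 read 53.9 and 46.1 at 25 ng/ml and 254 and 94.4 at 200 ng/ml, and both high-dose arrays exceeded both low-dose arrays. Its log2 fold change was 1.26 ± 0.31 (adjusted p = 0.0317), with 1.79 in replicate 1 and 0.73 in replicate 2. The ARR15 call was lost under 7 of 12 alternatives, with an adjusted p of 0.447 without replicate 1 at 200 ng/ml. RR16, the other named type-A regulator, was too dim to be tested. It read 9.77 and 2.101 in the 25 ng/ml arrays and 65.4 and 51.2 in the 200 ng/ml arrays. UGT76C1 and UGT76C2, glucosyltransferases that inactivate cytokinins, did not pass the test (0.23 and -0.50, adjusted p = 0.677 and 0.248). UGT76C2 read 646 and 358 at 25 ng/ml and 317 and 350.0 at 200 ng/ml, so the lower level stood in replicate 1 alone.

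Of 15 tested auxin genes 2 fell and 0 rose, beside 1.68% lower and 2.57% higher of all probe sets, with a median log2 fold change of -0.13 beside -0.04 over all probe sets tested. LBD16, a transcription factor that starts lateral roots downstream of auxin, read 664 and 561 at 25 ng/ml and 372 and 275 at 200 ng/ml (-0.88 ± 0.20, adjusted p = 0.0238). IAA20, an Aux/IAA repressor of auxin response, went from 84.9 and 56.1 to 41.97 and 14.4 (-0.85 ± 0.19, adjusted p = 0.0177). Neither gene overlapped between the doses, and each call was lost when any 1 of the 4 compared arrays was left out. LBD16 was called under 7 of the 12 alternatives and IAA20 under 4. GH3.1, an amino acid conjugase that inactivates auxin, did not pass either, at 492 and 729 against 422 and 182 (-1.03 ± 0.33, adjusted p = 0.101). YUC6, an auxin synthesis enzyme, read 34.9 and 30.9 against 110.6 and 91.4 (1.09 ± 0.31, adjusted p = 0.0647), which also missed the threshold.

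Among 18 tested regulators of root, embryo and organ development, 1 rose and 2 fell, beside 4.25% of all probe sets called. PUCHI, an AP2-type factor of lateral root founder cells and flower organs, fell from 456 and 449 to 285 and 243 (-0.73 ± 0.17, adjusted p = 0.0269), and it was called under 4 of the 12 alternatives and under none that left out 1 of the 4 compared arrays. BBM (BABY BOOM), an AP2-type factor of embryos and root meristems, read 258 and 97.2 at 25 ng/ml and 53.6 and 60.8 at 200 ng/ml (-1.16 ± 0.28, adjusted p = 0.032). The fall of BBM was 1.82 in replicate 1 and 0.50 in replicate 2, written as sizes on the log2 scale, and BBM was called under 5 of the 12 alternatives. PHV (PHAVOLUTA), a class III homeodomain-leucine zipper factor of upper leaf sides, shoot meristems and vascular tissue, rose from 544 and 355 to 992 and 715 (0.90 ± 0.14, adjusted p = 0.00173). The PHV call was lost without the replicate block (adjusted p = 0.23) and under no other alternative. PTL, a trihelix factor of flower organs, missed the threshold at 0.58 ± 0.16 (adjusted p = 0.0596).

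OPS (OCTOPUS), a membrane protein of early phloem cells, rose by a similar amount in both replicates. It read 216 and 157 at 25 ng/ml and 460.5 and 404 at 200 ng/ml (1.12 ± 0.15, adjusted p = 0.000487). SLY2, an F-box protein of gibberellin signalling also named SNEEZY, was the 1 of 6 gibberellin genes that changed, falling from 395 and 344 to 227 and 208 (-0.70 ± 0.16). The SLY2 call held under 4 of the 12 alternatives. BAT1, an acyltransferase linked to brassinosteroid inactivation, fell from 699.9 and 836 to 315 and 271 (-1.31 ± 0.25, adjusted p = 0.00802). EXO (EXORDIUM), a cell wall protein induced by brassinosteroid, fell by 0.64 ± 0.14, from 2070.4 and 1842 to 1521 and 1015.

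Called genes that act on cell walls went in both directions. XTH32 and XTH19 both belong to the xyloglucan endotransglucosylases, which cut and rejoin the xyloglucans that tether cellulose, and of 7 tested members these 2 were called. XTH32 rose from 51.1 and 86.7 to 271 and 217 (1.51 ± 0.24, adjusted p = 0.00173), whereas XTH19 fell from 406 and 292 to 159 and 101 (-1.27 ± 0.16, adjusted p = 0.000387). The expansins, which loosen walls without cutting them, gave 1 rise and 1 fall among 11 tested: EXPB3 went from 738 and 672 to 1580.5 and 1405 (1.05 ± 0.19), and EXPA20 from 438 and 461 to 277 and 301 (-0.59 ± 0.15). The EXPA20 call (adjusted p = 0.037) held under 4 of the 12 alternatives and that of EXPB3 under 10. Each family held 1 call each way, beside 4.25% of all probe sets called, at medians of 0.20 and 0.06. So few calls carry no result about the direction of a family.

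Of 20 tested genes for xylan synthesis and wall acetylation 2 rose and 0 fell, beside 2.57% and 1.68% of all probe sets, with a median of 0.11. IRX15, which is needed for normal xylan in secondary walls, was dim, at 39.6 and 33.6 against 125 and 61.1 (0.86 ± 0.23, adjusted p = 0.0469), and its call was lost under 7 of the alternatives. TBL36, of the family that acetylates wall polymers, was bright, at 2487 and 2037 against 3961 and 3356 (0.69 ± 0.15). Prx37, a class III peroxidase of the cell wall, fell evenly from 1520 and 1340 to 676 and 679 (-1.05 ± 0.14, adjusted p = 0.000685). SAH7 had the highest mean signal at 200 ng/ml of the named risers, going from 1804 and 1560 to 4610 and 3249 (1.19 ± 0.12, adjusted p = 5.4e-05), and its role is not annotated in the tables used.

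Cytoskeletal genes gave calls in both directions. Of 8 tested tubulins and actins 2 rose, TUB6 (0.50 ± 0.13) and ACT11 (0.67 ± 0.18), while the median was -0.01. TRM15, of a family that recruits proteins organising cortical microtubules, rose by 0.54 ± 0.14. The SPIRAL1-like and IQD families were picked out after their values were seen. SP1L4 rose beside SP1L2, from 61.4 and 34.3 to 98.9 and 82.3 (0.67 ± 0.18, adjusted p = 0.0491), and the remaining tested member, SP1L3, gave 0.30 ± 0.11 (adjusted p = 0.166). The IQD proteins, calmodulin-binding scaffolds many of which sit on microtubules, held 3 falls and 0 rises among 12 tested. IQD18 went from 239 and 98.5 to 47.1 and 37.02 (-1.40 ± 0.26), iqd15 from 398 and 320 to 191 and 187 (-0.83 ± 0.17) and IQD26 from 368 and 188 to 101 and 157 (-0.92 ± 0.24). The fall of IQD26 was 1.62 in replicate 1 and 0.23 in replicate 2. The ACT11, SP1L4, TRM15 and TUB6 calls were lost under 8 or more alternatives.

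The remaining named calls were spread over metabolism and regulation. Higher were GSTF4 (1.13), a phi class glutathione transferase, AILP1 (1.08), ATMPK13 (1.07), a mitogen-activated protein kinase, BGLU33 (0.93), a beta-glucosidase, WRKY6 (0.63), a transcription factor of senescence and phosphate response, and MSRA5 (0.53), which repairs oxidised methionine. UBC20, a ubiquitin-conjugating enzyme, rose by 0.48 and MDH by 0.42, the smallest of the named rises. Lower were MYBC1 (-1.19), ZCF37 (-1.13), the plantacyanin ARPN (-0.94), the RING-type protein ATL63 (-0.91), the aldehyde dehydrogenase ALDH3F1 (-0.87), the glucosyltransferase UGT71C3 (-0.87), the carboxypeptidase-like scpl25 (-0.85), the small GTPase ARLA1B (-0.79), LPR1, an oxidase that sets root growth at low phosphate (-0.72), whose adjusted p was 0.0492 and whose call held under 0 of the 12 alternatives, and the tau class glutathione transferase GSTU27 (-0.63).

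Of 29 tested cell division and chromosome genes 0 were called (limma), which beside 4.25% of all probe sets is no result about them, with a median of -0.09 and single values from -0.50 to 0.49. AUR1, a mitotic kinase, read 1668 and 936 against 1337 and 949, and HTB1, a histone, 1596 and 1330.1 against 1470.3 and 1185. The 33 tested nuclear genes for photosynthesis and chlorophyll also held 0 calls, likewise near that share, with 22 above 0 and a median of 0.12. LHCB4.1, a light-harvesting protein, read 450.4 and 261 against 549.8 and 318 (0.27 ± 0.20, adjusted p = 0.572). The 35 plastid-encoded photosystem, cytochrome, ATP synthase and Rubisco genes had a median of -0.02 and no call. The median SE of a log2 fold change over all probe sets was 0.17, which limits how small a change of a single gene could be called.

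**Figure D4:**
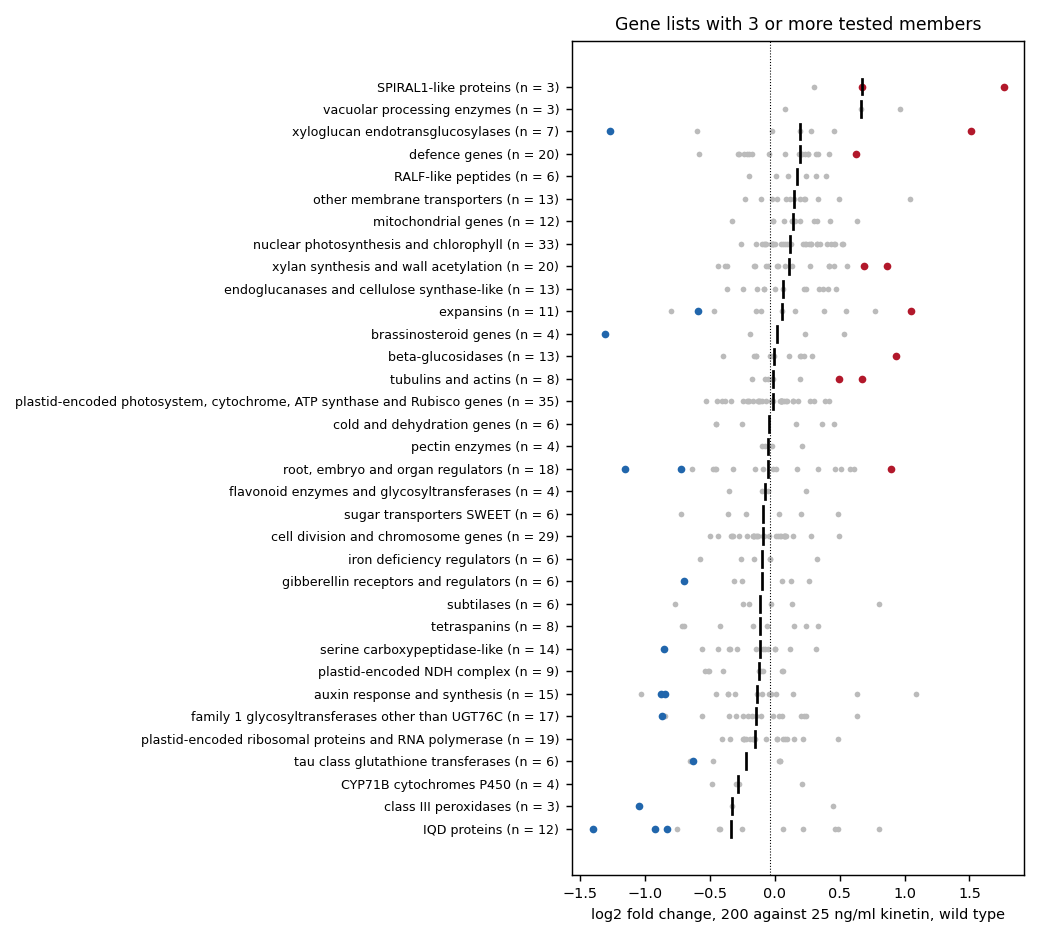
Log2 fold change at 200 against 25 ng/ml kinetin in wild type for the tested members of the 34 gene lists with 3 or more tested members, grey where not called, red where called higher, blue where called lower, with a bar at each median and a dotted line at -0.04, the median of all probe sets. Most members lie near the dotted line, and 18 lists hold no called member. The lists of 12 IQD proteins (median -0.33, 5 members above 0) and 3 SPIRAL1-like proteins (median 0.67) were picked out after their values were seen. The 3 vacuolar processing enzymes, with 0 called, also have a median of 0.67.

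Whether a gene moved more between 25 and 200 ng/ml than between 0 and 25 ng/ml was asked with a contrast of the 2 steps. From 0 to 25 ng/ml 8 probe sets were higher (0.0517%) and 2 lower (0.0129%), in all 0.0646%, and from 0 to 200 ng/ml 874 were higher (5.65%) and 890 lower (5.75%), in all 11.4%. These comparisons share arrays with the one described here. The contrast of the steps called 0 probe sets in limma, with a lowest adjusted p of 0.0998, and 746 had an unadjusted p below 0.05. It called 0 in each other setting except when replicate 1 or replicate 2 at 25 ng/ml was left out, which gave 3 and 1. The larger number of calls in the second step is thus not shown to be a larger change of single genes.

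The ckh1-1 and ckh2-1 mutants, affected in a subunit of the general transcription machinery and in the chromatin remodeller PICKLE, give further arrays at both doses. Their own steps called 4.99% of probe sets in ckh1-1 and 9.36% in ckh2-1. Of the 398 probe sets higher in wild type, 388 had a positive step in ckh2-1 (97.5%, beside 45.3% of all tested) and 231 were called higher there (58.0%, beside 4.05%). In ckh1-1, 347 were positive (87.2%, beside 42.2%) and 75 were called (18.8%, beside 1.37%). The medians of these probe sets were 0.88 in wild type, 0.65 in ckh2-1 and 0.39 in ckh1-1, and the wild type value is raised by having chosen them there. Of the 260 lower in wild type, 250 were negative in ckh2-1 and 180 called lower (69.2%, beside 5.31%), and 220 were negative in ckh1-1 and 132 called (50.8%, beside 3.62%). Their medians were -0.89 in wild type, -0.92 in ckh2-1 and -0.72 in ckh1-1.

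Tested directly, the step differed from wild type for 125 probe sets in ckh1-1 (0.808%), with the mutant step above that of wild type in 26 (0.168%) and below it in 99 (0.64%). In ckh2-1 it differed for 76 (0.491%), above in 11 (0.0711%) and below in 65 (0.42%). In ckh1-1, 21 of the 398 wild type rises differed and all 21 were smaller there. A smaller step is not by itself a lower level. SAH7 read 3854 and 2943 at 25 ng/ml in ckh1-1 against 1804 and 1560 in wild type, and GSTF4 359 and 280 against 218 and 158. SP1L2 did not start higher in this way, at 48.5 and 30.7 against 46.8 and 35.4. Whether starting levels account for the smaller steps was not tested. Of the 260 falls 52 differed in ckh1-1, 24 of them smaller falls and the others deeper. In ckh2-1 only 1 rise and 23 falls differed, and 5 of those falls were smaller. These counts use the wild type arrays that chose the probe sets. With 1 array left out the count ran from 62 to 179 for ckh1-1, lowest without ckh1-1 replicate 1 at 25 ng/ml, and from 30 to 113 for ckh2-1, lowest without wild type replicate 2 at 25 ng/ml. Both were highest without wild type replicate 1 at 25 ng/ml.

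Among the 12 largest wild type falls, 7 differed in ckh1-1 and 2 in ckh2-1, beside 0.808% and 0.491% of all tested. These falls, like the 12 rises below, were chosen on wild type arrays that also enter this test. That choice favours mutant steps nearer to none, so the counts are not independent of it. AT2G23540, among the deepest falls in wild type, read 265 and 176 at 25 ng/ml and 372 and 231 at 200 ng/ml in ckh1-1, where its step was 0.40 and not called. In ckh2-1 it went from 248 and 162 to 116 and 71.6, a smaller fall than in wild type (-0.94). AT1G68850 was not called in ckh1-1, at 167 and 145.2 against 185 and 138, and differed from wild type by 1.62 ± 0.19 (adjusted p = 0.00051). AT2G22510 and AT2G48130 were not called in ckh1-1 either and differed by 1.75 ± 0.26 and 1.56 ± 0.23.

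Among the 12 largest rises, AT1G03620, AT3G10080 and AT3G61920 rose less in ckh1-1 than in wild type (differences of -0.88, -1.13 and -1.05). These missed the threshold (limma adjusted p = 0.0532, 0.0541 and 0.0864). AT5G11420 and AT5G19110 rose more there (0.49 and 0.46), also not called. SP1L2 was the 1 of the 12 largest rises whose step was called different in a mutant. In ckh1-1 it read 48.5 and 30.7 at 25 ng/ml and 39.7 and 28.0 at 200 ng/ml, so no rise was seen there (-0.12, adjusted p = 0.855), and its step differed from wild type by -1.89 ± 0.38 (adjusted p = 0.0242). In ckh2-1 SP1L2 rose from 75.1 and 37.7 to 384 and 218, by 1.96, which differs from the wild type step by 0.19 ± 0.38 (adjusted p = 0.97). The fall of iqd15 was deeper in both mutants: from 154 and 138 to 10.6 and 15.6 in ckh1-1 and from 269.6 and 296 to 18.6 and 16.97 in ckh2-1, differing from wild type by -1.27 (adjusted p = 0.0148) and -1.95 (adjusted p = 0.000912). PUCHI also fell further in ckh2-1, from 288 and 239.8 to 50.9 and 44.1, a difference from wild type of -1.23 (adjusted p = 0.0354). ARR15 rose in ckh1-1 by 1.12 (adjusted p = 0.0498), from 41.5 and 56.0 to 174 and 107, and in ckh2-1 by 1.44, from 63.1 and 50.2 to 223 and 179.5, and those steps differ from that of wild type by -0.14 ± 0.44 and 0.18 ± 0.44. BBM, lower in wild type mainly in replicate 1, fell in both mutants, from 97.2 and 69.1 to 1.47 and 3.43 in ckh1-1 (-1.88, adjusted p = 0.000699) and from 110.4 and 150.1 to 3.94 and 3.38 in ckh2-1 (-2.33, adjusted p = 6.74e-05). These BBM steps were not called different from that of wild type (-0.72 ± 0.40, adjusted p = 0.625, and -1.18 ± 0.40, adjusted p = 0.368).

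**Figure D5:**
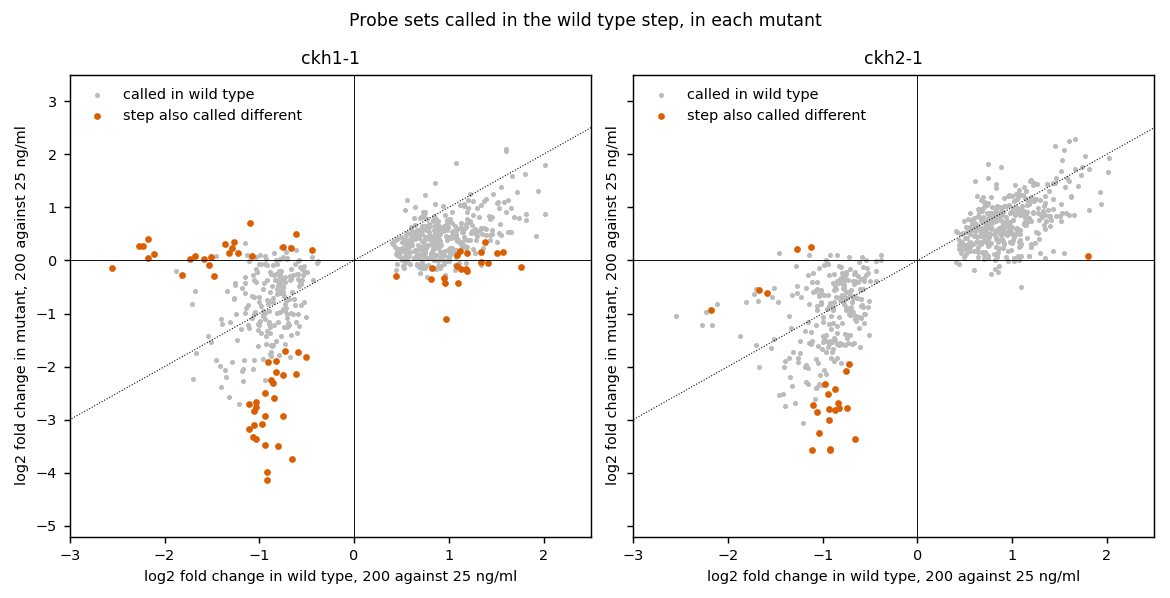
Log2 fold change at 200 against 25 ng/ml kinetin in wild type (x axis) and in ckh1-1 (left) or ckh2-1 (right; y axis) for the 658 probe sets called in wild type, with equality dotted and orange marking those whose step differed from wild type by the test. In ckh1-1, where the median rise is 0.39 beside 0.88 in wild type, rises lie mostly below the dotted line. Of the 52 orange falls there, 24 lie above the line and the others below it. In ckh2-1, with a median rise of 0.65, rises lie closer to the line. That panel holds 1 orange rise and 23 orange falls, 5 of those falls above the line.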

How the data were processed

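The authors deposited linear intensities, MAS5 signals per the submitters' processing notes, for 22810 probe sets in 1 table. Neither the software version nor the target of the scaling is given in the sources used here. Per the labels, biotinylated cRNA was made from total RNA by the standard Affymetrix protocol. With arrays, their number limits the precision.

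Groups came from the sample titles. The 64 control probe sets were left out, and 15469 of the 22746 others passed the filter on dim values, a mean over the 40th percentile in 1 or more of the 10 groups. Log2 of signal plus 27.39 (0.1 of the median trimmed mean) was fitted with limma 3.58.1 in R 4.3.3, using lmFit over all 20 arrays with 10 group means and the replicate number as a block, then eBayes with a trend. There were 9 residual degrees of freedom. P-values were adjusted by Benjamini-Hochberg over all 15469 within each comparison and called below 0.05. Each adjusted p is from this fit, and each ± is its SE, with n = 2 arrays a group. Tables and figures used Python 3.11.15, pandas 2.3.3 and matplotlib 3.10.9.

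The block was chosen for the scaling that replicate numbers share. Same-numbered arrays deviated together (correlation above 0.1) in 27 of 45 pairs of groups, and at -0.03 for the groups compared, so the numbers are not shown to pair cultures.

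Named are the 12 strongest rises and 12 strongest falls among probe sets that were called, map to 1 gene, have 1 sign in both replicate numbers and reach a group mean above the median signal. For each contrast of steps 4 are named each way, and beside these every called list member and the type-A regulators that the platform annotation names. Gene names came from the platform annotation, which gives 1 gene for 13513 probe sets, several for 503 and none for 8730. Of these, 1580 have more than a locus tag as name, and 13436 were found in RefSeq's gene table (TAIR10.1), used for names only. The comparison and the 37 lists were chosen with earlier results of these data known. Lists were built from gene symbols, a few symbols were moved or removed after their annotation was read with values in view, and the SPIRAL1-like and IQD lists came after the values. Lists are described by counts and medians, with no test.

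The fit was tested on simulated data in which 200 of 15469 probe sets were shifted in this comparison. It called 80 of the 100 shifted by 1 on the log2 scale, 97 of the 100 shifted by 2, and 6 unchanged ones. Without the block these were 22, 90 and 0. The simulated arrays shared a replicate shift over all groups and had the same normal spread in each group. The fit with the block assumes both, so the simulation cannot show which fit is better for the real arrays. It does not give their error rate either. In the real data the deviations of the 2 groups compared correlated at -0.03. Alternatives were no block, quantile normalization, rescaling to a common trimmed mean, no filter and a pseudocount of 2.739. Others were wild type arrays alone, TSA included, and each array left out, where the lone array is assumed to vary like the others. The further fits, rescaling and quantile normalization each without the block, were added after seeing the data. Promoter motifs and genome coordinates were not used here.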

Additional observations from a re-analysis of the deposited data

Results flagged for a closer look

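The following genes were picked out because their change from 25 to 200 ng/ml kinetin differed between a mutant and wild type by a test of the difference itself (limma interaction contrast, adjusted p below 0.05). Each value is the log2 step of the mutant minus that of wild type, with 2 arrays in each of the 4 groups.

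In ckh1-1 the strongest positive differences were in genes that fell in wild type and were not called in the mutant: AT2G23540 (2.57 ± 0.22), AT4G38080 (2.49 ± 0.40), AT3G22620 (2.42 ± 0.33) and AT1G74460 (2.22 ± 0.34), with adjusted p-values from 3.12e-05 to 0.00533. AT3G22620 read 348 and 251 at 25 ng/ml and 304 and 234 at 200 ng/ml in ckh1-1. AT4G38080 read 477 and 458 against 594 and 539.6 there, and AT1G74460 500.3 and 246 against 452 and 325.

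The strongest negative differences in ckh1-1 were AT5G01870 (-3.50 ± 0.28), AT4G38410 (-3.29 ± 0.50), AT4G29020 (-3.06 ± 0.29) and AT5G45670 (-3.04 ± 0.48), with adjusted p-values from 2.42e-05 to 0.00442. AT5G01870 was among the brightest, at 11700 and 7129 against 7725 and 6499 in wild type (-0.36, not called), while in ckh1-1 its 200 ng/ml arrays read 696 and 546. AT4G29020 was called lower in wild type (-0.92), from 6421 and 3964 to 2535 and 2779, and in ckh1-1 it went from 1975 and 1295 to 75.8 and 75.1. AT4G38410 and AT5G45670 were not called in wild type.

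In ckh2-1 the positive differences were AT1G12080 (1.55 ± 0.26), AT2G30540 (1.43 ± 0.29), ZCF37 (1.39 ± 0.28) and AT2G23540 (1.24 ± 0.22), with adjusted p-values from 0.0105 to 0.0427. ZCF37 fell in wild type by 1.13 on the log2 scale and read 142 and 39.7 against 128 and 78.0 in ckh2-1. AT1G12080 rose in ckh2-1 from 418 and 366 to 1746 and 1334, with 366 and 361 against 473 and 464 in wild type.

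The negative differences in ckh2-1 were PDF2.5, a defensin-like protein (-2.70 ± 0.54), AT4G29020 (-2.62 ± 0.29), AT4G17350 (-2.59 ± 0.39) and AT5G60520 (-2.36 ± 0.49), with adjusted p-values from 0.000685 to 0.0457. PDF2.5 read 500.1 and 198 against 203 and 323 in wild type, where replicate 1 fell and replicate 2 rose, and in ckh2-1 it went from 391 and 670.3 to 35.9 and 47.0.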

How the results depend on the processing

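The count of 658 for wild type 200 against 25 ng/ml stayed within 1.5 times under quantile normalization, rescaling, no filter and the smaller pseudocount, from 472 to 687. It was 76 without the replicate block, where the scaling difference between replicate numbers enters the spread and the median SE was 0.29 in place of 0.17, and 193 with wild type arrays only. With each array left out in turn it ran from 146 to 629, lowest without replicate 1 at 200 ng/ml, and was 315 without replicate 1 at 25 ng/ml. The share of higher calls was 60.5% and moved by under 10 percentage points in each setting. Removing the scaling without the block gave 461 by rescaling and 476 by quantile normalization. The contrast of ckh1-1 with wild type gave 125 (26 higher, 99 lower), and 28 without the replicate block (3 higher, 25 lower), with 62 to 179 when 1 array was left out. That of ckh2-1 gave 76 (11 higher, 65 lower), and 12 without the replicate block (0 higher, 12 lower), 50 with no filter, and 30 to 113 when 1 array was left out. The contrast of the second with the first dose step gave 0 to 3 with 1 array left out and 0 in the other settings. Why these counts moved was not tested beyond what each setting removes. Of the 50 called probe sets named by the naming rule, 21 stayed called under every alternative, 24 under every alternative other than the fit without the block, 40 in rescaled arrays without the block, and 0 changed sign under any of them. Of the 12 largest rises 11 and of the 12 largest falls 9 stayed called under every alternative, against 2 of the 44 called genes that carry a gene name. The largest rises and falls were chosen for size and signal, which favours keeping a call, so this contrast says nothing about named genes. ARR15, IRX15 and BGLU33, each below the median signal at 25 ng/ml, had SEs of 0.31, 0.23 and 0.23. Precision did not follow brightness alone: the brighter BBM and BAT1 had SEs of 0.28 and 0.25, and the dim IAA20 0.19.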
